A study of Mus musculus with 24 samples.

Results

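The control hippocampus was compared with the other brain areas of unstressed mice, to describe what sets the RNA of this area apart before any stress is applied. The members were the 12 arrays labelled as control among the 24 arrays of the series: 3 of hippocampus, and 9 others made up of 3 each of amygdala, prefrontal cortex (PFC) and cerebral cortex (CC). All mice were wild-type C57BL/6 males, and the controls were kept without the stressors. The age label reads 6-8 weeks on every array, which the methods give as the age at purchase, before the 4 weeks of the protocol, while the age ranges in the sample descriptions differ from array to array. The 12 arrays left out came from mice given chronic mild stress (CMS) 6 days a week for 4 weeks, and they were used for the same contrast in other animals, for the test of its difference between treatments with the 3 genes named from it, and for 1 filter on probe sets. RNA was hybridised to the Affymetrix Mouse Genome 430 2.0 array, which reads most genes through 1 or more probe sets. No source used here says how each area was cut out. The labels call the 3 arrays of a group biological replicates while the methods speak of pooled RNA, so that the spread behind each p-value may be technical.

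The hippocampus holds a simple circuit in which granule cells of the dentate gyrus send mossy fibres to the pyramidal cells of field CA3, which project in turn to field CA1. It is known for its part in memory and spatial coding, for the birth of new granule cells in adult rodents, and for a high density of corticosteroid receptors. The amygdala serves emotional learning, and the cortical areas are built of layers, each with its own types of projection neuron.

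The deposited values are on a log2 scale on which every probe set has a median of 0 over the 24 arrays. They give differences between arrays and no absolute level, so the values of different genes cannot be ranked against each other. The 3 control hippocampus arrays correlated with each other at r = 0.87 to 0.921 over all probe sets, and the control CC arrays least, at 0.69 to 0.837. The bacterial poly-A transcripts that are added to RNA before labelling averaged -4.55 to -4.49 on the control hippocampus arrays and -0.71 to 0.67 on the other control arrays, and the hybridisation controls -1.14 to -1.06 against -0.21 to 0.24. The CMS hippocampus arrays were similarly low, at -4.63 to -4.61 for the poly-A transcripts. Handling of the hippocampus samples and the area itself cannot be told apart in this design, and the part of this difference in the gene results was not tested.

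Of 18193 genes, 252 (1.39%) were higher and 456 (2.51%) lower in the control hippocampus than in the mean of the 3 other areas, each area weighted equally, at a Benjamini-Hochberg adjusted p under 0.05 in limma and a fold over 2. Genes past both thresholds are termed called. At the level of probe sets the counts were 735 (1.63%) and 1279 (2.84%) of 45037. Without the fold threshold 4402 genes (24.2%) were higher and 5202 genes (28.6%) lower. The SE of a gene had a median of 0.044 on the log2 scale. The excess of lower genes depended on the scaling: after quantile normalization of the 12 arrays the counts were 267 higher and 249 lower. Named genes that were no longer called as lower in that setting were Stmn1, Ramp3, Slc17a6, Itih3, Aif1, Fmod, Grik1, Gabrg1, Crhr1, Camk4, Camk2d and Adcy8. The median difference over all genes was 0.012. Of the called genes, 233 of the 252 higher (92.5%) and 358 of the 456 lower (78.5%) had no overlap between the 3 hippocampus arrays and the 9 others, against 12.9% and 13.0% of all genes in the higher and the lower direction. Differences beyond 2 on the log2 scale were found for 62 higher and 92 lower genes, and beyond 4 for 10 and 8. The test takes its error from the spread within areas, so that a gene could be called because of 1 area. Values against single areas are therefore given for part of the genes described. A gene given without all 3 values need not be past the fold threshold against every area. Cbln1 stood at -0.83 against amygdala, and Neurod1 and Col6a1 at 0.79 and -0.86 against CC. With the 9 other arrays as 1 group, whose error contains the differences between areas, the adjusted p was 0.0548 to 0.49 for 24 named genes: Npy2r, Ido1, Eomes, Lhx9, Ramp3, Slc17a6, Baiap3, Trh, Avp, Irs4, Folr1, Sp8, Dlx5, Gad2, Dlx1, Itih3, S100a8, S100a9, Grik1, Gabrg1, Htr1d, Crhr1, Hsd11b1 and Ttr. The comparisons with the single areas share the hippocampus arrays. A probe set near background on the arrays of 1 group understates a difference, and this could not be read from centred values.

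The label was checked against the markers of granule cells and of CA1 pyramidal cells, and all 4 were higher. Prox1, the homeobox gene that specifies and maintains dentate granule cells, read 2.75, 2.89 and 2.94 on the 3 hippocampus arrays and -0.12 to 0.77, median -0.031 on the 9 others. Its log2 difference was 2.73 ± 0.087 (SE; adjusted p = 8.15e-09), a 6.62-fold higher level, and all 3 of its probe sets were called. Dsp, which encodes the junction protein desmoplakin and marks granule cells in the forebrain, read 4.58, 5.06 and 4.61 against -0.18 to 0.17, median -0.047, and differed by 4.77 ± 0.086 (adjusted p = 1.86e-10). Of the 3 probe sets of Dsp, 2 were called, at 6.53 and 7.23, and the other stood at 0.55. The arrays of the other 9 samples did not reach the hippocampus for either gene.

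The CA1 markers were higher by amounts that varied with the area. Fibcd1, which encodes a membrane receptor with a fibrinogen-like domain, read 3.60, 3.55 and 3.49 against -2.65 to 0.57, median 0.079, and differed by 4.16 ± 0.12 (adjusted p = 5.07e-09). Its difference was 3.14 against amygdala, 3.50 against PFC and 5.85 against CC. Spink8, a Kazal-type protease inhibitor gene, read 6.08, 6.07 and 6.02 against -0.34 to 2.03, median -0.12, a difference of 5.68 ± 0.15 (adjusted p = 1.88e-09). The amygdala arrays held the highest values of Spink8 outside the hippocampus, with a mean of 1.57 ± 0.44 (SD, n = 3) against -0.25 ± 0.12 in PFC and -0.18 ± 0.16 in CC.

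**Figure D1:**
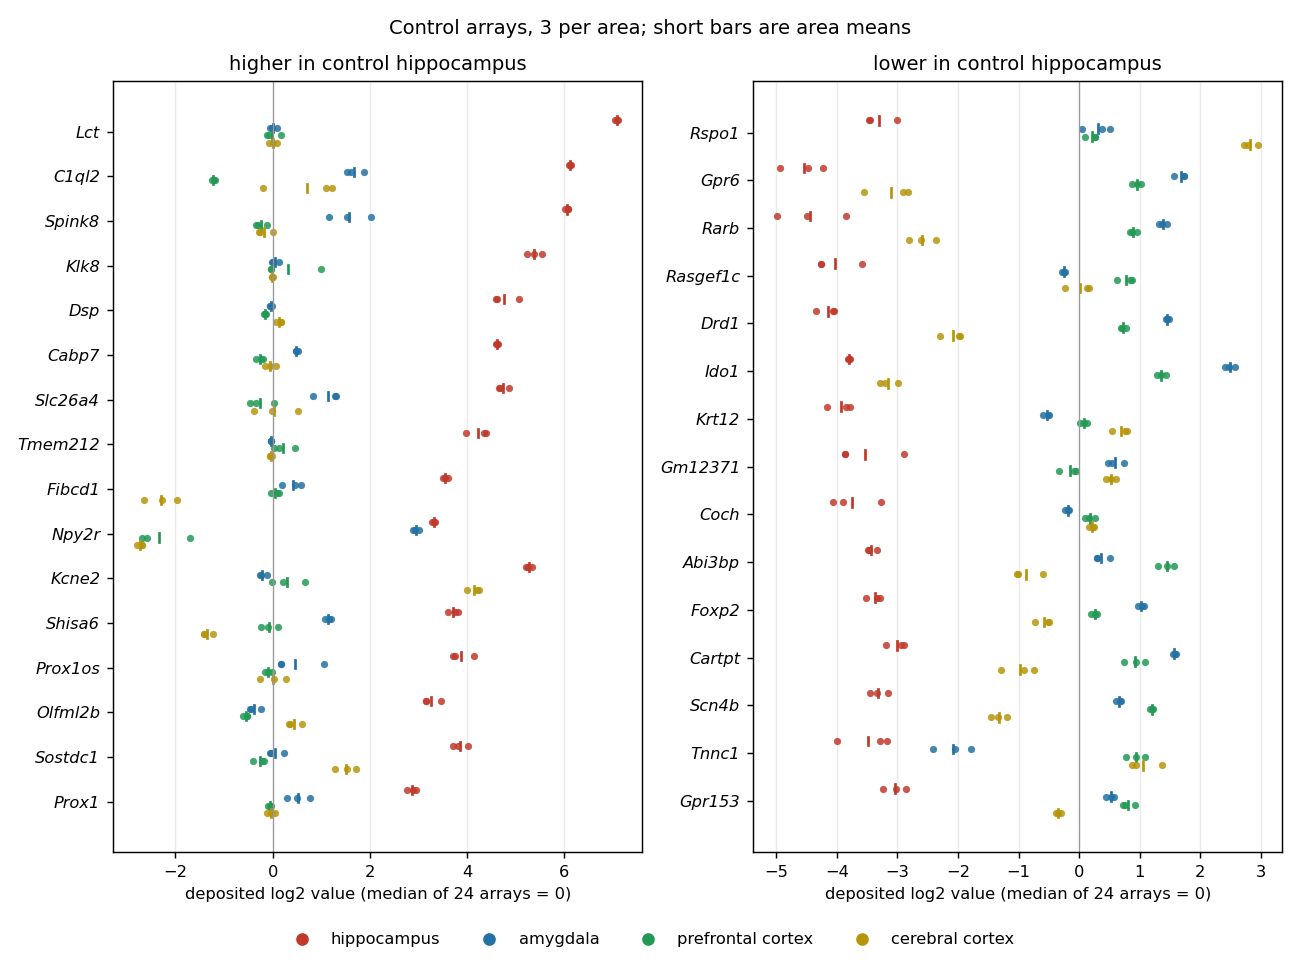
Deposited log2 value (x axis) of the 15 genes with the highest and the 15 with the lowest difference among called genes whose arrays did not overlap, with Prox1, on the 12 control arrays; points are arrays, short bars area means, and colours the 4 areas. Hippocampus values of Lct sit near 7 with all other arrays near 0, while Npy2r in amygdala and Kcne2 in CC lie close to the hippocampus.

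Among the 18193 genes, each the mean of its probe sets, the largest difference belonged to Lct. This gene of the milk sugar enzyme lactase is also used as a dentate granule cell marker. Lct read 7.03, 7.08 and 7.11 on the hippocampus arrays and -0.12 to 0.16, median -0.0091 on the others, a difference of 7.07 ± 0.059 (adjusted p = 3.97e-12; 135-fold), and stood at 7.07, 7.08 and 7.07 against amygdala, PFC and CC. C1ql2, a C1q-like secreted protein of mossy fibre synapses, read 6.12, 6.09 and 6.14 against -1.26 to 1.88, median 1.09, and differed by 5.73 ± 0.25 (adjusted p = 6.23e-08). Its 9 other arrays were spread widely, with the lowest values in PFC, so that the difference ranged from 4.44 against amygdala to 7.34 against PFC. Klk8, the secreted serine protease neuropsin that acts at hippocampal synapses, read 5.37, 5.22 and 5.53 against -0.038 to 0.99, median -0.0061, and differed by 5.26 ± 0.19 (adjusted p = 1.72e-08).

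Promoters of the 4 genes with the largest differences that the RefSeq promoter table holds are shown, because these genes were higher together and because the basic helix-loop-helix factors Neurod1, Neurod2 and Neurod6, which bind E-boxes, were higher as well. Each run is the 250 bases before the annotated start on build GRCm38.p6, 5′ to 3′ on the gene's strand, with E-boxes in capitals. The motif searched was CANNTG, which reads the same on both strands.
Lct, chr1:128328319-128328568, minus strand: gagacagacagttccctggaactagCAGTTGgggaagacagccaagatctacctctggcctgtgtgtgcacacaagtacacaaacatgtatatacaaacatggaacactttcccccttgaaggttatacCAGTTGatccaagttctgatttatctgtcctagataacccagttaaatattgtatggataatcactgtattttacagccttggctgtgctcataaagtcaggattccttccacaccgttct
C1ql2, chr1:120340332-120340581, plus strand: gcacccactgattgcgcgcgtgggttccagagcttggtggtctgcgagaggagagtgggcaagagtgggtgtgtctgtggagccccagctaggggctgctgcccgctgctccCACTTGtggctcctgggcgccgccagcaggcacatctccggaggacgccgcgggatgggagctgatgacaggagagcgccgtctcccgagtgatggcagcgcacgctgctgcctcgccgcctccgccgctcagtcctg
Klk8, chr7:43797327-43797576, plus strand: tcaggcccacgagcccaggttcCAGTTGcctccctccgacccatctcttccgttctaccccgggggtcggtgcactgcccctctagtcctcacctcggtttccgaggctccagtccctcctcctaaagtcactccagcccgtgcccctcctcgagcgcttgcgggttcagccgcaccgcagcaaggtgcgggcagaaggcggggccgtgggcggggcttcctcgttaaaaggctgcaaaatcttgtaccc
Dsp, chr13:38151044-38151293, plus strand: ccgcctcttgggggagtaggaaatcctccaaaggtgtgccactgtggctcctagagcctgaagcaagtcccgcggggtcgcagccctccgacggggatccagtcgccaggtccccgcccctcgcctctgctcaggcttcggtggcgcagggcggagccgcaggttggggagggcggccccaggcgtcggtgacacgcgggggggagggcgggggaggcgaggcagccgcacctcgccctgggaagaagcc
The window of Lct held 2 such motifs, those of C1ql2 and Klk8 held 1 each and that of Dsp held 0. An E-box was present in 62.3% of the 257 windows of genes called higher, in 61.0% of the 477 windows of genes called lower and in 61.3% of the 18109 windows of all genes tested. Over all 32851 windows of the table the share was 66.2%. A match is a description of the letters and not a bound site.

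Cabp7, a neuronal calcium-binding protein, read 4.60, 4.59 and 4.64 against -0.34 to 0.51, median -0.052, a difference of 4.55 ± 0.043 (adjusted p = 4.45e-12) that was seen against amygdala, PFC and CC alike (4.12, 4.87 and 4.66). Shisa6, an auxiliary subunit of AMPA receptors, differed by 3.81 ± 0.072 (adjusted p = 2.63e-10), ranging from 2.57 against amygdala to 5.06 against CC. Slc26a4, the anion exchanger pendrin, differed by 4.43 ± 0.18, and Olfml2b, a gene with an olfactomedin domain, by 3.43 ± 0.083. Prox1os, annotated on the opposite strand of Prox1, differed by 3.74 ± 0.19, and signal of the overlapping pair was not separated here.

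The differences of 3 further genes were uneven over the areas. Npy2r, the Y2 receptor of neuropeptide Y, read 3.32, 3.27 and 3.35 in hippocampus and -2.79 to 3.00, median -2.59 elsewhere. Its arrays did not overlap, a condition for its choice, and its difference was 4.02 ± 0.17 (adjusted p = 5.1e-08). Against amygdala the difference was only 0.38, against 5.64 for PFC and 6.04 for CC, and with the 9 other arrays taken as 1 group the call was lost (adjusted p = 0.0855). Kcne2, a potassium channel subunit of the choroid plexus, differed by 3.86 ± 0.12, with 5.48 against amygdala, 4.98 against PFC and 1.12 against CC. Sostdc1, a secreted antagonist of BMP and Wnt signals, differed by 3.42 ± 0.11, again least against CC (2.34). Tmem212, listed with ependymal genes, was higher by like amounts against every area: it differed by 4.19 ± 0.097 and by 4.27, 4.03 and 4.27 against the 3 areas.

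Rspo1, an R-spondin that amplifies Wnt signalling, read -3.45, -3.01 and -3.46 on the hippocampus arrays and 0.04 to 2.96, median 0.38 on the others, a difference of -4.42 ± 0.12 (adjusted p = 2.46e-09), and was lowest against CC (-6.13). Coch, which encodes the matrix protein cochlin, read -3.90, -3.28 and -4.06 against -0.23 to 0.26, median 0.16, a difference of -3.81 ± 0.13 (adjusted p = 1.26e-08) of like size against amygdala (-3.56), PFC (-3.92) and CC (-3.96). Abi3bp, another matrix protein gene, differed by -3.74 ± 0.097, and the keratin gene Krt12 by -4.01 ± 0.077. Foxp2, a forkhead transcription factor of deep cortical layers, striatum and amygdala, read -3.28, -3.33 and -3.52 against -0.72 to 1.07, median 0.26, differed by -3.61 ± 0.058 (adjusted p = 9.07e-11), and was called at 5 of its 6 probe sets. The differences of Rasgef1c, a Ras exchange factor, of Gpr153, an orphan receptor, and of the predicted gene Gm12371 were -4.21 ± 0.14, -3.37 ± 0.072 and -3.86 ± 0.18.

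Other low genes differed least from CC. Drd1, the D1 dopamine receptor, read -4.07, -4.04 and -4.34 in hippocampus and -2.29 to 1.49, median 0.70 elsewhere, and its difference of -4.18 ± 0.077 (adjusted p = 2.27e-10) was made of -5.61 against amygdala, -4.87 against PFC and -2.07 against CC. Gpr6, an orphan receptor of striatal neurons, differed by -4.39 ± 0.17 and by -1.44 against CC, and Rarb, a retinoic acid receptor, by -4.34 ± 0.19 and -1.85. Ido1, an enzyme that degrades tryptophan, differed by -4.03 ± 0.058, but by only -0.64 against CC. The adjusted p of Ido1 was 4.18e-11 with areas as groups and 0.0742 with the 9 other arrays as 1 group. Its arrays did not overlap, which was a condition for its choice. Cartpt, a neuropeptide precursor, and Scn4b, a sodium channel subunit, differed by -3.51 ± 0.11 and -3.49 ± 0.065. Tnnc1, a troponin gene, had the opposite pattern and was closest to amygdala (-1.40, against -4.54 for CC).

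The lists of genes that mark cell types, areas and functions were set against these background shares. Of 15 measured dentate granule cell genes 7 were called higher and 0 lower, with a median difference of 0.80, and 11 had hippocampus arrays that did not overlap the others. Beside Lct, C1ql2, Dsp and Prox1 the called genes were Tdo2, a tryptophan dioxygenase, at 1.84, Trpc6, a cation channel, at 1.65 and Sema5a, a guidance molecule, at 1.06. Calb1, the calcium buffer calbindin, stood at 0.051. The list mean was 1.81 to 1.92 over the hippocampus arrays and -0.20 to 0.13 over the others, and in tissue RNA of this kind fewer cells of a type and less RNA per cell cannot be told apart.

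Of 19 CA field pyramidal cell genes 11 were called higher and 2 lower, with a median of 1.11. Homer3, a postsynaptic scaffold, read 2.97, 2.70 and 3.45 on the hippocampus arrays and at most 0.52 elsewhere, and differed by 2.94 ± 0.15 (adjusted p = 2.27e-07). Lefty1, a secreted antagonist of Nodal, read 2.64, 2.56 and 2.39 against -0.10 to 0.034, median -0.0045, and differed by 2.55 ± 0.045 (adjusted p = 1.86e-10). Rgs14, a regulator of G protein signalling that is rich in CA2, stood at 1.11. The lower genes were Ptpn5, the striatum-enriched phosphatase STEP, at -1.58, and Pcp4, a calmodulin-binding protein of CA2 but also of striatum and deep cortex, at -1.45.

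Transcription factors known from the patterning of the hippocampus were called higher in 5 of 13 cases and lower in 0, with a median of 0.80. Zbtb20, a zinc finger repressor needed for CA1 identity, read 2.07, 2.04 and 2.08 against -0.79 to 0.062, median 0.0069, differed by 2.29 ± 0.027 (adjusted p = 1.44e-11), and was called at all 9 of its probe sets. Neurod6, a factor of cortical and hippocampal pyramidal neurons, differed by 2.56 ± 0.056 (adjusted p = 6.12e-10), with 3.65 against amygdala and 1.32 against CC. Neurod1, required for granule cells, differed by 1.49 ± 0.067, Neurod2 by 1.17 ± 0.028 and Nfix by 1.06. Neurod2 was no longer called without the amygdala arrays (0.76 on the log2 scale). Emx1 stood at -0.19 and Lef1 at 0.0028.

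Genes of adult neurogenesis showed no common direction, with 1 called higher and 2 lower of 14 and a median of 0.019. Hopx, a homeodomain gene of quiescent neural stem cells and astrocytes, differed by 1.08 ± 0.036 (adjusted p = 1.18e-08). Stmn1, a regulator of microtubules, differed by -1.08 ± 0.029 (adjusted p = 2.64e-09). Eomes, which marks intermediate progenitors, was called lower at -1.45 ± 0.07 only through PFC: its PFC mean was 5.20 ± 0.15 (SD, n = 3) against 0.14 ± 0.16 in hippocampus, and without PFC the difference turned to 0.35. The doublecortin gene Dcx of immature neurons stood at -0.92, and the proliferation genes Mki67 and Top2a at 0.029 and 0.089.

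**Figure D2:**
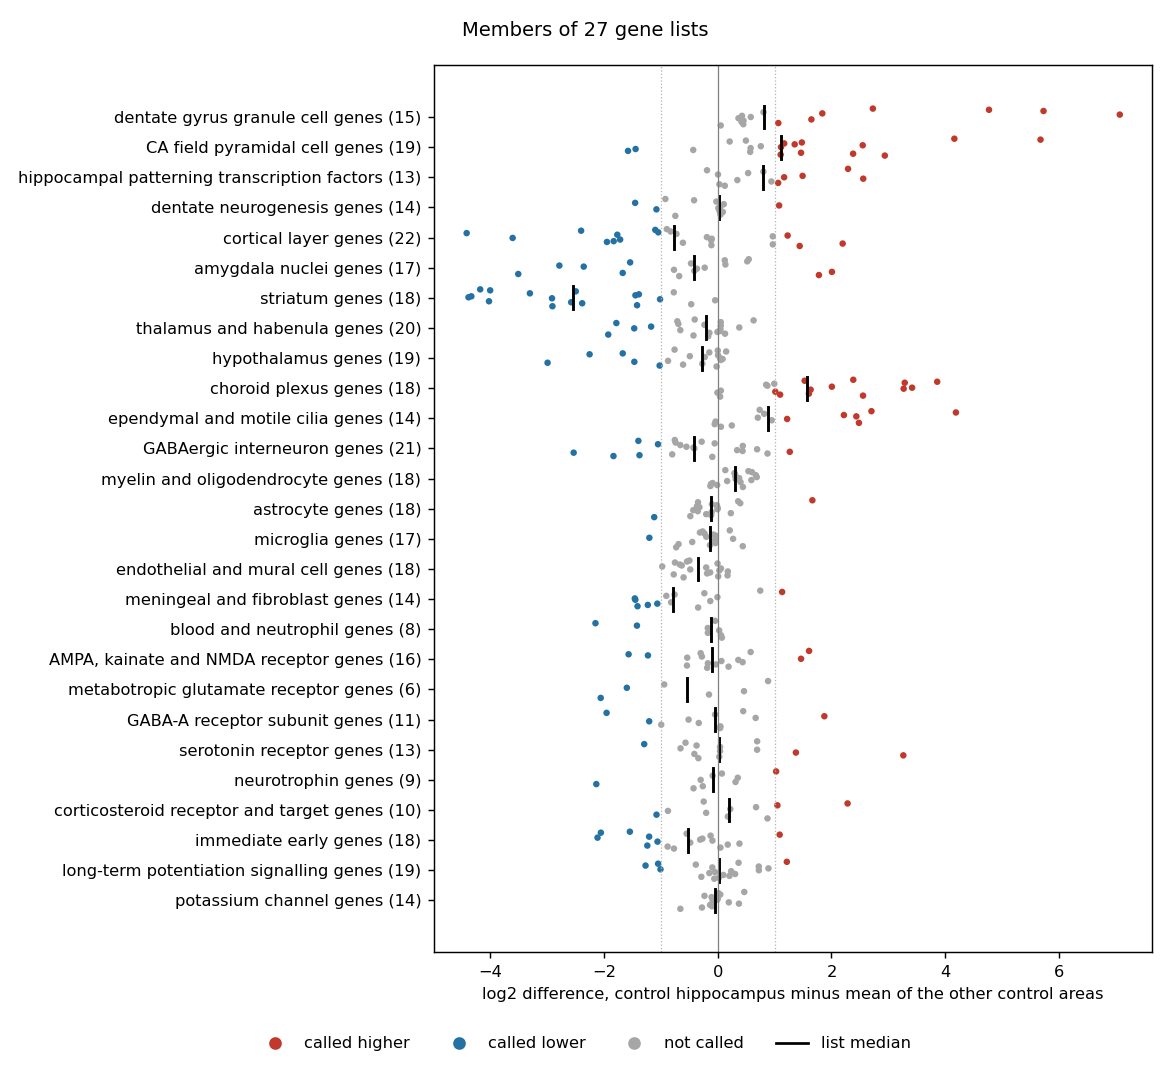
Log2 difference between the control hippocampus and the mean of the other control areas (x axis) for each measured member of 27 gene lists, whose sizes stand in brackets; red and blue points were called higher and lower, grey points were not called, black bars are list medians and dotted lines mark a fold of 2. The striatum list lies farthest to the left, with a median of -2.54, and the choroid plexus list farthest to the right, at 1.56.

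Cortical layer genes were lower more often than higher, with 9 lower and 3 higher of 22 and a median of -0.78. Besides Rspo1 and Foxp2, the largest of them was Lamp5, a membrane protein of upper layers and interneurons, which read -2.01, -2.06 and -1.98 against -0.60 to 1.45, median 0.34 and differed by -2.41 ± 0.029 (adjusted p = 1.87e-11), least against amygdala (-1.46) and most against CC (-3.40). Cux2 and Rorb, factors of the upper and middle layers, stood at -1.10 and -1.05, and Ccn2 and Cplx3, which mark the deepest layer, at -1.83 and -1.95. The 3 higher genes were Pcdh20, a protocadherin, at 2.20 ± 0.031 (adjusted p = 4.18e-11), Crym, the thyroid hormone binding crystallin mu, at 1.44, and Fezf2, a factor of deep layer projection neurons, at 1.23.

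Amygdala genes were called lower in 5 and higher in 2 of 17 cases, with a median of -0.41. Crh, the corticotropin-releasing hormone, read -2.46, -2.50 and -2.12 in hippocampus against -0.32 to 0.77, median 0.64, and differed by -2.79 ± 0.091 (adjusted p = 9.79e-09), with -3.07 against amygdala, -2.25 against PFC and -3.04 against CC. Tac2, a tachykinin precursor, differed by -2.36 ± 0.12 and Tshz1, a zinc finger factor, by -1.54. The higher genes were Lhx9, a LIM homeobox factor, at 2.01 ± 0.073, and Grp, the gastrin-releasing peptide, at 1.78. Lhx9 stood 2.84 above PFC and 2.81 above CC, but only 0.37 above amygdala. Against the amygdala arrays alone, 8 of the 17 were called lower and 1 higher, where 3.29% and 1.85% of all genes were.

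Genes of striatal neurons were lower in 15 of 18 cases and higher in 0, with all 18 values below 0 and a median of -2.54. Drd2, the D2 dopamine receptor, stood at -4.01, Penk, the enkephalin precursor, at -3.31, and Ppp1r1b, which encodes the dopamine-regulated phosphatase inhibitor DARPP-32, at -2.50. In 10 of the 18 genes all hippocampus arrays lay below the 9 others, where 13.0% of all genes did. Drd2 was not among the 15 lowest genes, for which no overlap was a condition. The list mean was -2.43 to -2.38 on the hippocampus arrays, 1.18 to 1.21 in amygdala, 0.95 to 1.02 in PFC and -2.12 to -1.96 in CC. The median difference was thus -3.89 against amygdala and -3.50 against PFC, but -0.34 against CC, where 5 members were lower. With the 9 other arrays as 1 group, which puts the differences between areas into the error, 5 members were called lower. In that setting 320 of all 18193 genes were.

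Genes of the thalamus and hypothalamus also varied between the areas. Of 20 thalamus and habenula genes 4 were lower and 0 higher (median -0.20): Cbln1, a secreted synapse organiser, at -1.93 ± 0.077, Tnnt1, a troponin gene, at -1.79 ± 0.16, Ramp3, a receptor-associated protein, at -1.47 ± 0.20, and Slc17a6, the vesicular glutamate transporter VGLUT2, at -1.17 ± 0.04. Ramp3 and Slc17a6 had overlapping arrays, and Ramp3 stood 0.88 above amygdala. Of 19 hypothalamus genes 5 were lower and 0 higher (median -0.27) and, apart from Vgll3, none of the 5 was lower against CC. Avp, the vasopressin gene, differed by -5.03 against amygdala, -0.044 against PFC and 0.05 against CC, and Trh, the thyrotropin-releasing hormone, by -2.49, -4.49 and 0.21. Baiap3, a regulator of dense-core vesicles, differed by -2.996 ± 0.27, Irs4, an insulin receptor substrate, by -1.47 ± 0.052, and Vgll3, a transcription cofactor, by -1.02 (against CC 0.82, 0.032 and -1.11). Of the 2 probe sets of Irs4, 1 was called, at -2.98, and the other stood at 0.041. The hypothalamus list mean was 1.61 to 1.78 on the amygdala arrays and -0.15 to 0.00 on the hippocampus arrays. None of the 5 was called with the 9 other arrays as 1 group, where 320 of all 18193 genes were called lower.

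Genes of the epithelia that line the ventricles were higher in the hippocampus samples. Of 18 choroid plexus genes, whose epithelium secretes cerebrospinal fluid, 12 were higher and 0 lower with a median of 1.56. Folr1, a folate receptor, read 4.47, 4.66 and 4.73 against -0.50 to 4.32, median 0.62, and differed by 3.29 ± 0.19 (adjusted p = 5.08e-07). Calml4, a calmodulin-like protein, differed by 3.27 ± 0.11, and F5 (coagulation factor V) and Otx2, a homeobox factor of the choroid plexus, by 2.55 and 2.01. Ttr, the thyroxine carrier transthyretin made in large amounts by this epithelium, read 3.47, 3.45 and 3.46 in hippocampus, and its means were -1.85 ± 0.096 in amygdala, 1.82 ± 0.023 in PFC and 3.25 ± 0.013 in CC (SD, n = 3 each). Its difference of 2.38 ± 0.033 (adjusted p = 4.18e-11) fell below the fold threshold without amygdala (0.92). The list mean was 2.00 to 2.12 in hippocampus and 1.27 to 1.45 in CC, but only -0.42 to -0.36 in amygdala and 0.12 to 0.18 in PFC, and 5 members were called higher against CC alone. Thus the choroid plexus level moved with area also among the other 3, and its part in other differences was not tested.

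Ependymal genes, most of which serve motile cilia, were higher in 6 and lower in 0 of 14 cases (median 0.88). After Tmem212, the largest were Ccdc153 at 2.70 ± 0.26, Ak7, a ciliary adenylate kinase, at 2.48 ± 0.13 and Mia, a small secreted protein, at 2.44 ± 0.24. These stood higher against each area, with 3.15, 2.74 and 2.57 against CC, and the list mean was 1.27 to 1.31 in hippocampus against -0.18 to 0.13 elsewhere. The cilia master regulator Foxj1 stood at 0.74, below the fold threshold, and Hydin and Spag6 at 0.055 and -0.056.

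**Figure D3:**
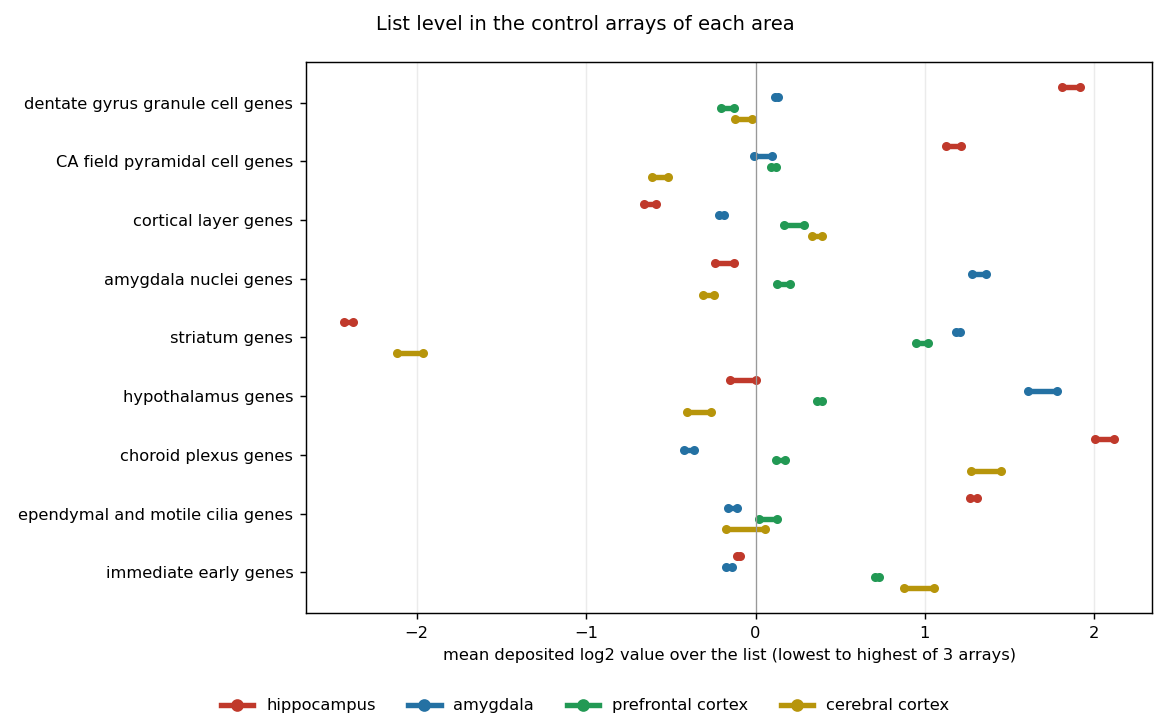
Mean deposited log2 value over the measured members of 9 lists (x axis) on the control arrays of each area; each bar runs from the lowest to the highest of 3 arrays. Hippocampus is apart from the other areas for dentate, CA field and ependymal genes, but lies near CC for striatum genes and near amygdala for immediate early genes.

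Genes of inhibitory neurons were lower in 5 and higher in 1 of 21 cases, with a median of -0.43. Gad2, a GABA-synthesising enzyme, read -0.99, -1.05 and -1.06 in hippocampus and -1.05 to 1.58, median 0.62 elsewhere, with overlap, and its difference of -1.40 ± 0.061 (adjusted p = 7.17e-08) was -2.50 against amygdala, -1.66 against PFC and -0.034 against CC. Sp8, Dlx1 and Dlx5, factors of interneurons and their precursors, were lowest against PFC (-5.20, -2.86 and -3.27). Against CC they stood at -0.68, -0.45 and 0.039, and the arrays of Dlx5 overlapped. Vip, the vasoactive intestinal peptide, stood at -1.05 and the receptor tyrosine kinase gene Kit at 1.27. Pvalb, Sst and Npy, which mark the common interneuron classes, were not called, at -0.74, -0.055 and -0.66. With the 9 other arrays as 1 group the list held 0 lower genes, where 320 of all 18193 genes were lower.

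Myelin genes held 0 calls in limma in either direction. At an unadjusted p under 0.05, 14 were higher and 1 lower, and the share of all genes at that p was not counted. At the adjusted p alone 13 of 18 were higher, where 24.2% of all genes were. The list median was 0.31, and the highest value was 0.69 ± 0.058 for Ugt8a, an enzyme of myelin lipid synthesis. Cldn11, a myelin tight junction protein, followed at 0.67 ± 0.062. Among 18 astrocyte genes Gfap, the intermediate filament protein of astrocytes and adult neural stem cells, was higher: it read 1.38, 1.40 and 1.42 against -0.97 to 0.42, median -0.36, and differed by 1.66 ± 0.052 (adjusted p = 7.14e-09). Itih3, a hyaluronan-binding serum protein, was lower at -1.12 ± 0.05, most against amygdala (-2.16), and the glutamate transporter Slc1a2 and the water channel Aqp4 stood at 0.39 and 0.36. The astrocyte median was -0.11, and Gfap had the highest value of the list.

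Aif1, which encodes the calcium-binding protein IBA1, was the 1 microglia gene of 17 called, and it was lower at -1.20 ± 0.14 (adjusted p = 6.39e-05), while Tmem119 and P2ry12 stood at -0.31 and -0.27. The 18 endothelial and mural cell genes, as means of their probe sets, held 0 limma calls. At an unadjusted p under 0.05, 2 were higher and 11 lower, and the share of all genes at that p was not counted. At the adjusted p alone 10 of 18 were lower, where 28.6% of all genes were. The list median was -0.34, and the lowest value was -0.98 ± 0.061 for Abcb1a, the drug efflux pump of the blood-brain barrier. Of the 2 probe sets of Abcb1a, 1 was called lower, at -1.04, and the other stood at -0.91. Vtn, a pericyte gene, followed at -0.78 ± 0.048. Of 14 meningeal and fibroblast genes 5 were lower (median -0.79), namely Slc6a13, a GABA transporter of the meninges, at -1.46 ± 0.21, Ogn at -1.45 ± 0.074, Col6a1 at -1.41 ± 0.13, Fmod at -1.23 ± 0.053 and Ptgds, the prostaglandin D synthase, at -1.06. The arrays of Slc6a13 overlapped. Against CC, Slc6a13, Col6a1 and Fmod were under the fold threshold, at -0.57, -0.86 and -0.92. Lum, a small proteoglycan like Ogn and Fmod, was the 1 higher gene of this list, at 1.13. Of 8 blood genes, the neutrophil genes S100a8 and S100a9 were lower at -2.15 ± 0.23 and -1.42 ± 0.039, both through PFC (-5.00 and -4.44), and neither was called without the PFC arrays.

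Receptors of glutamate were split. Of 16 AMPA, kainate, NMDA and delta receptor genes 2 were higher and 2 lower, with a median of -0.10. Gria1, the GluA1 subunit of AMPA receptors, read 1.46, 1.43 and 1.46 in hippocampus and -0.99 to 0.28, median 0.046 elsewhere, a difference of 1.61 ± 0.062 (adjusted p = 2.9e-08), whereas Gria4, the GluA4 subunit, read -1.34, -1.36 and -1.41 against -0.085 to 0.41, median 0.23, a difference of -1.57 ± 0.046 (adjusted p = 4.34e-09). The arrays of hippocampus lay on opposite sides of the other areas for these paralogous subunits, with Gria2 and Gria3 at 0.58 and -0.30. Grik4, the high-affinity kainate receptor subunit known from CA3, read 1.38, 1.53 and 1.56 against -0.19 to 0.31, median 0.054, and differed by 1.46 ± 0.10 (adjusted p = 1.79e-06). Grik1, another kainate subunit, differed by -1.23 ± 0.13 but by only -0.19 against PFC, and its arrays overlapped. The NMDA subunits Grin2a and Grin2b stood at 0.063 and 0.44.

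Of 6 metabotropic glutamate receptor genes, the presynaptic group III receptors Grm8 and Grm4 were lower and 0 were higher (median -0.55). Grm8 read -2.05, -1.82 and -2.12 against -0.56 to 0.42, median 0.19, and differed by -2.06 ± 0.10 (adjusted p = 1.73e-07). Grm4 differed by -1.60 ± 0.059 (adjusted p = 1.93e-08), and the groups did not overlap for either gene. Among 11 GABA-A receptor subunits, Gabra5, the alpha5 subunit of extrasynaptic receptors, was higher, with 1.97, 1.85 and 1.42 against -0.46 to 0.071, median -0.031 and a difference of 1.87 ± 0.092 (adjusted p = 1.52e-07). Gabra3, the alpha3 subunit, was lower, with -1.80, -1.97 and -1.22 against -0.43 to 0.99, median 0.22 and a difference of -1.96 ± 0.14 (adjusted p = 2.3e-06). Gabrg1 was lower at -1.21 ± 0.039, mainly against amygdala (-2.52), and the median of the list was -0.048.

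Of 13 serotonin receptor genes, Htr5b had the largest difference. This 5-HT5B serotonin receptor, functional in rodents, read 3.03, 3.31 and 3.42 in hippocampus and -0.11 to 0.20, median -0.0073 elsewhere, a difference of 3.26 ± 0.079 (adjusted p = 1.19e-09; 9.6-fold) that held at 3.25, 3.32 and 3.22 against the 3 areas. Htr4, a receptor that raises cAMP, differed by 1.37 ± 0.12 (adjusted p = 9.93e-06), but by only 0.42 against amygdala. Of the 2 probe sets of Htr4, 1 was called, at 2.59, and the other stood at 0.16. Htr1d was lower at -1.30 ± 0.12, with overlap and -0.027 against CC, and Htr1a, the autoreceptor that is also postsynaptic in hippocampus, stood at 0.69. The 13 serotonin receptor genes had a median of 0.026.

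Genes of stress hormones and growth factors were split as well. Of 10 corticosteroid genes 2 were higher and 1 lower (median 0.20). Nr3c2, the mineralocorticoid receptor, read 2.06, 2.10 and 2.11 against -0.60 to 0.42, median -0.42, and differed by 2.28 ± 0.038 (adjusted p = 1.18e-10), with 1.69 against amygdala, 2.51 against PFC and 2.65 against CC. Nr3c1, the glucocorticoid receptor, stood at -0.25. Hsd11b1, which regenerates active corticosteroid, differed by 1.05 ± 0.071 with overlap and by 0.20 against CC, and Crhr1, the type 1 receptor of corticotropin-releasing hormone, by -1.08 ± 0.099 with overlap. Bdnf, the brain-derived neurotrophic factor, read 0.91, 0.85 and 0.99 against -0.59 to 0.75, median -0.38, and its difference of 1.03 ± 0.054 (adjusted p = 2.41e-07) was near the fold threshold and was not called without hippocampus replicate 3 (0.99). Sorcs1, a sorting receptor of the Vps10 family, differed by -2.14 ± 0.08 (adjusted p = 2.16e-08), with no overlap, and the 9 neurotrophin genes had a median of -0.091. Of the 3 probe sets of Sorcs1, 2 were called, at -2.16 and -4.03, and the other stood at -0.23.

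**Figure D4:**
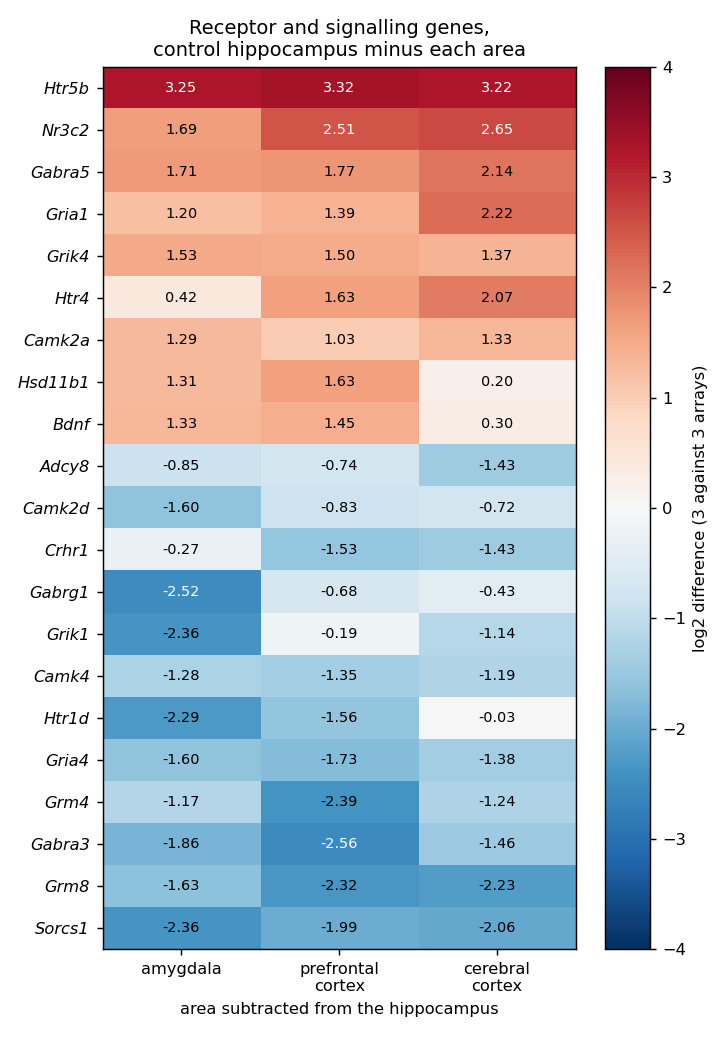
Log2 difference between control hippocampus and each other control area (columns; 3 arrays against 3) for 21 receptor and signalling genes that were called against the mean of the areas (rows), printed in each cell and coloured from blue, lower in hippocampus, to red, higher. Htr5b, Gabra5, Gria1 and Nr3c2 were above every area. Htr1d, Grik1, Crhr1, Hsd11b1, Bdnf, Htr4 and Gabrg1 were close to at least 1 of the areas. Camk2d and Adcy8 were under the fold threshold against some areas.

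Immediate early genes, which neurons switch on within minutes of activity, were lower in 6 and higher in 1 of 18 cases with a median of -0.52. Fos read -0.69, -0.78 and -0.62 against 0.26 to 1.48, median 0.84, and differed by -1.55 ± 0.029 (adjusted p = 2.52e-10). Egr2 and Fosb, a zinc finger and a Fos family factor, differed by -2.12 ± 0.065 and -2.06 ± 0.096, and Dusp1, a phosphatase of MAP kinases, by -1.24 ± 0.031. Against amygdala Egr2 differed by -1.32, while Fos, Fosb and Dusp1 were under the fold threshold, at -0.96, -0.69 and -0.40. Egr1 and Npas4 stood at -1.21 and -1.06, Arc at -0.095, and Jun was the higher gene, at 1.09. The list median was 0.027 against amygdala, -0.76 against PFC and -1.17 against CC. Without CC 3 members were lower, where 500 of all 18193 genes were. The list mean was -0.11 to -0.093 in hippocampus, -0.18 to -0.14 in amygdala, 0.70 to 0.73 in PFC and 0.88 to 1.05 in CC.

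Among 19 genes of long-term potentiation 1 was higher and 3 were lower (median 0.018). Camk2a, the alpha subunit of calcium/calmodulin-dependent kinase II, read 1.02, 0.99 and 1.11 against -0.37 to 0.047, median -0.22, and differed by 1.21 ± 0.045 (adjusted p = 2.27e-08). Of the 6 probe sets of Camk2a, 3 were called, at 1.17, 1.97 and 2.92, and the others stood at 0.031, 0.53 and 0.67. Camk4, a nuclear kinase of the same family, read -1.36, -1.35 and -0.99 against -0.12 to 0.17, median 0.056, and differed by -1.27 ± 0.072 (adjusted p = 4e-07). Camk2d and Adcy8, a kinase subunit and a calcium-stimulated adenylyl cyclase, stood just past the threshold at -1.05 ± 0.062 and -1.01 ± 0.096, and all 3 lower calls were lost after quantile normalization. The value of Camk2d is a mean of 7 probe sets. Of these 3 were called, at -1.90, -2.52 and -2.65, and the others lay between -0.17 and 0.053. Of 14 potassium channel genes, as means of their probe sets, limma called 0. At the adjusted p alone 3 were higher and 4 lower, where 24.2% and 28.6% of all genes passed. The counts at an unadjusted p under 0.05 were the same, and the share of all genes at that p was not counted. Values ran from -0.66 ± 0.056 for Kcnk2 to 0.47 ± 0.035 for Kcna1, with a median of -0.05. Of the 4 probe sets of Kcna1, 1 was called higher, at 1.49, and the others stood at 0.37, 0.031 and -0.034.

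Taken 1 area at a time, 337 genes (1.85%) were higher and 598 (3.29%) lower in the control hippocampus than in amygdala, 265 (1.46%) and 585 (3.22%) than in PFC, and 319 (1.75%) and 544 (2.99%) than in CC. CA field genes were higher in 12, 8 and 13 of 19 cases against the 3 areas in this order, and dentate granule cell genes in 7, 6 and 7 of 15. Choroid plexus genes were higher in 14, 14 and 5 of 18, and striatum genes lower in 15, 16 and 5 of 18. Cortical layer genes were lower in 5, 10 and 10 of 22.

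The same contrast was formed from the 12 CMS arrays, which are other animals. In them 317 genes (1.74%) were higher and 597 (3.28%) lower. Of the control calls, 217 of 252 higher genes (86.1%, and 68.5% of the CMS calls) and 373 of 456 lower genes (81.8%, and 62.5%) were called the same way, 251 and 452 had the same sign, and 0 were called the opposite way. Dentate granule cell genes were called higher in 8 of 15 cases with a median of 1.05 in CMS mice, CA field genes in 11 of 19 with 1.17, and striatum genes lower in 16 of 18 with -2.82. Not every list repeated its control pattern. Of 20 thalamus and habenula genes 6 were higher and 0 lower in CMS mice, with a median of 0.28. In controls 0 were higher and 4 lower, with -0.20. Hypothalamus genes were lower in 2 of 19 cases in CMS mice, with a median of -0.052, and in 5 in controls. Lct differed by 6.95, Spink8 by 5.52, Dsp by 4.79, Prox1 by 2.65 and Htr5b by 3.14 in CMS mice.

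The difference between the contrasts was itself tested over all 24 arrays. It passed both thresholds for 44 genes with a larger (0.242%) and 46 with a smaller value (0.253%) in control mice. The choroid plexus list had a median of 2.60 in CMS mice and 1.56 in controls. The largest change among called genes was that of Ttr, at -6.03 ± 0.074 (adjusted p = 1.01e-19): it differed by 2.38 ± 0.033 in controls and 8.41 in CMS mice, where its means were 3.57 ± 0.071 in hippocampus, -5.55 ± 0.055 in amygdala, -5.33 ± 0.16 in PFC and -3.65 ± 0.097 in CC. The hippocampus level of Ttr was thus near that of controls, and the levels of the other areas were lower. S100a9 differed by -4.46 in CMS mice against -1.42, with a change of 3.04 ± 0.17 (adjusted p = 1.63e-09), and Baiap3 by -0.037 against -2.996, with -2.96 ± 0.30 (adjusted p = 2.38e-06).

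**Figure D5:**
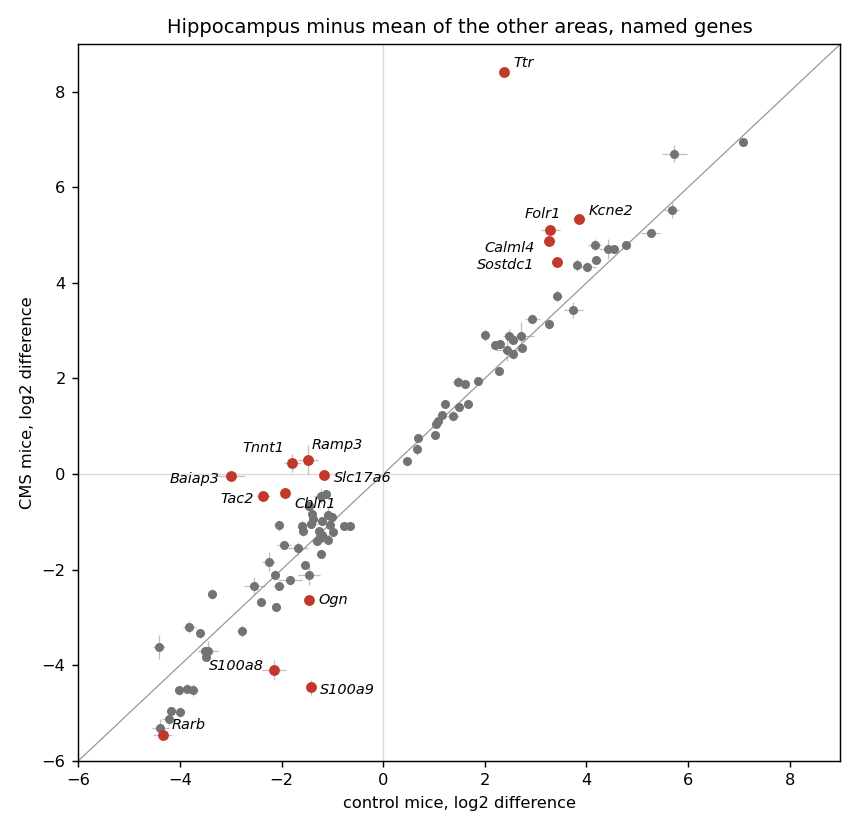
Log2 difference between hippocampus and the mean of the other areas for the 103 named genes in control mice (x axis) and in CMS mice (y axis), with SE bars; the diagonal marks equality. Red points are the 15 genes whose difference between control and CMS mice passed both thresholds, with Ttr farthest from the diagonal.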

How the data were processed

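RNA of 4 brain areas of control and CMS mice (8 groups of 3 arrays, 24 in all) was hybridised to Affymetrix Mouse Genome 430 2.0 arrays. Per the labels and the methods, the authors summarised the scans with GCRMA in GeneSpring and set each probe set to a baseline, and the deposited values are log2 values with a median of 0 per probe set (at most 5e-07 away) over the 24 arrays. Arrays have no read depth, and their number limits the precision. All 24 columns belonged to samples of this series. The table held 45101 probe sets, of which the 64 control probe sets were left out and 45037 tested. By the platform annotation 34945 probe sets had 1 gene symbol, 932 several and 9160 none, and a gene (18193 in all) was the mean of its probe sets with 1 symbol. Of 305 called genes with several probe sets, 142 had every probe set called in the same direction.

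The main test was limma 3.58.1 in R 4.3.3 on the 12 control arrays with 4 area means and moderated variances, with Benjamini-Hochberg adjustment over all genes or probe sets. Tested on simulated data for the probe set comparison (45037 probe sets), it recovered 98 of 100 probe sets changed by 1.5 and 100 of 100 changed by 3 on the log2 scale and called 0 unchanged ones. In these data each probe set had the same level in every area apart from the added changes, with independent noise. Calls that rest on 1 of the other areas could therefore not arise in them. The design text takes the areas from the same mice, but no source says that a replicate number marks a mouse: same-numbered control arrays of different areas deviated from their area means with r = -0.227 to 0.106 (1 of 18 pairs over 0.1), so that no block was used. Groups came from the labels.

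The members and the 27 gene lists (460 entries, 419 measured) were chosen with earlier results of these data known. Named genes were the 4 markers, the 15 highest and 15 lowest called genes without overlap of arrays, up to 4 called members of each list with the largest difference (or the 2 largest members where none was called) and the 3 called genes that differed most between control and CMS mice. List members and genes of the closing section named beyond this rule were chosen after their values were seen. Promoter sequences came from RefSeq (GRCm38.p6), which held windows for 14452 of the genes tested. Alternatives were the methods' t-test, other groupings, normalizations, moderation, filters and gene summaries, and leaving out arrays or areas.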

Additional observations from a re-analysis of the deposited data

Results flagged for a closer look

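For 15 of the named genes the contrast of the hippocampus with the mean of the other areas differed between control and CMS mice (limma over all 24 arrays, adjusted p under 0.05, and a difference over 1 on the log2 scale). The values are the contrast in control mice minus that in CMS mice.

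Choroid plexus genes were further above the other areas in CMS mice, with -6.03 ± 0.074 for Ttr, -1.81 ± 0.23 for Folr1, -1.60 ± 0.16 for Calml4, -1.48 ± 0.14 for Kcne2 and -1.02 ± 0.14 for Sostdc1. Of the thalamus, hypothalamus and amygdala lists, 6 named genes that were lower in the control hippocampus had a smaller difference from the mean of the other areas in CMS mice: -2.96 ± 0.30 for Baiap3, -2.02 ± 0.26 for Tnnt1, -1.90 ± 0.17 for Tac2, -1.77 ± 0.38 for Ramp3, -1.52 ± 0.13 for Cbln1 and -1.15 ± 0.07 for Slc17a6. Their contrasts in CMS mice were -0.037, 0.23, -0.46, 0.30, -0.40 and -0.022 in the same order. Crh, Cartpt, Trh and Avp of these lists were called lower in CMS mice as well, at -3.29, -3.71, -1.84 and -1.55. In the positive direction stood 3.04 ± 0.17 for S100a9, 1.95 ± 0.32 for S100a8, 1.19 ± 0.12 for Ogn and 1.12 ± 0.21 for Rarb, which were lower still in the hippocampus of CMS mice relative to the other areas.

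On the hippocampus arrays alone, Tnnt1 averaged -1.89 ± 0.48 in control and 0.44 ± 0.078 in CMS mice, and Baiap3 -2.52 ± 0.88 and -0.24 ± 0.12 (SD, n = 3). S100a9 averaged 3.04 ± 0.081 in control and 6.43 ± 0.06 in CMS PFC, with -1.40 ± 0.0084 and -1.10 ± 0.22 in hippocampus.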

How the results depend on the processing

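Of the 97 named genes called, 62 were called under all 25 alternatives and 35 were lost under at least 1, most often when the 9 other arrays formed 1 group (24) or under the methods' t-test (23), whose error contains the differences between areas, then under quantile normalization (12) and without amygdala (12). Directions turned for Eomes without PFC (0.35), for S100a9 without PFC (0.086) and for Avp without amygdala (0.003). Leaving out hippocampus replicate 3 ended the calls of Bdnf (0.99), Hsd11b1 (1.00) and Adcy8 (-0.96), and leaving out hippocampus replicate 1 that of Crhr1 (-0.97). Without CC the values of Dusp1 (-0.88) and Stmn1 (-0.97) and without PFC those of Hopx (0.97) and Col6a1 (-0.97) were under the fold threshold. Adcy8 was also lost without amygdala replicate 3, PFC replicate 3 or CC replicate 1 or 2 (-0.99 to -0.98).

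The main comparison of probe sets called 735 higher and 1279 lower, and 728 to 758 and 1258 to 1338 with 1 array left out (genes 251 to 271 and 447 to 474). Quantile normalization gave 711 lower probe sets (818 higher), 249 lower genes and 1053 lower probe sets against amygdala alone, where 1691 were lower. With the most variable probe set for each gene 465 genes were higher and 739 lower. Without the fold threshold the counts were 12331 and 10510 probe sets or 4402 and 5202 genes in controls, 5017 and 13459 or 2358 and 6708 in CMS mice, and 4500 and 9781 against amygdala, 16680 and 9264 against PFC, and 4284 and 8884 against CC. With the replicate number as a block 734 probe sets were higher and 1277 lower and no named call changed. Whether the numbers pair the arrays is not known. Centred values gave no brightness, so the filter left out the probe sets with the smallest SD over the CMS arrays.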

Other observations

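The genes that follow lie outside the lists and were picked after their values were seen. Tgfb2, a transforming growth factor, differed by 2.86 ± 0.041 from the mean of the other areas and was called at all 4 of its probe sets, with 2.33 against amygdala, 3.11 against PFC and 3.15 against CC. Serpina3n, a serine protease inhibitor, differed by 2.90 ± 0.097, Rasd1, a small GTPase induced by dexamethasone, by 3.13 ± 0.11, and Rnf182, a RING finger protein, by 3.22 ± 0.074. Slit1, a repellent of growing axons, differed by 2.54 ± 0.084 at both of its probe sets, while the values of Slit2 and Slit3 were 0.29 ± 0.11 and 0.64 ± 0.086. Krt73, a keratin gene, differed by 2.93 ± 0.1. Popdc3 differed by 2.59 ± 0.089, but by only 0.88 against amygdala.

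Among genes with low values, Adcyap1, the precursor of the peptide PACAP, differed by -3.05 ± 0.078, with -3.24, -2.50 and -3.40 against amygdala, PFC and CC. Cckbr, the cholecystokinin B receptor, differed by -3.35 ± 0.11 and Pcsk1, a prohormone convertase, by -2.62 ± 0.22. Cbln2, a synapse organiser, Dpp10, an auxiliary subunit of potassium channels, and Susd2 differed by -3.004 ± 0.089, -2.66 ± 0.035 and -2.97 ± 0.14. Th, the rate-limiting enzyme of dopamine synthesis, differed by -2.95 ± 0.10, with -2.15 against amygdala, -6.35 against PFC and -0.36 against CC. Lrrc10b differed by 2.06 ± 0.086, with 6.56 against CC, 0.22 against PFC and -0.61 against amygdala.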
